A study of Homo sapiens with 9 samples.

Results

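The genes described here are 42 neighbours of CD74 and ANXA6 on the long arm of human chromosome 5, out of 38478 gene rows in the table. They were chosen by position, as named genes of a stretch of about 5.45 Mb (chromosome 5, 149492197 to 154938209, GRCh38, GENCODE positions). CD74 and ANXA6 themselves were picked because both were lower in gFBXW7_gKMT2D cells in these same libraries, so they serve as anchors and their values in the comparisons with that group are given without a test. The question asked was whether the expressed genes around both anchors were lower too, as a change of the whole region would give, or were not.

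OPM-1, an established human myeloma line of plasma cell type, was grown in RPMI with 10% fetal bovine serum, and polyadenylated RNA was sequenced in 9 libraries. The gFBXW7_gKMT2D cells stably carried RNAs against FBXW7 and KMT2D, the gFBXW7 cells an RNA against FBXW7, and the gLuc cells an RNA against luciferase as control. Each group has 3 libraries labelled as independent biological replicates, and all 9 carry the genotype label WT. How the RNAs act on their targets, and whether a line is a clone or a pool, is not given in the sources used here. FBXW7 is the substrate receptor of a ubiquitin ligase and KMT2D is a histone methyltransferase that acts at enhancers. Levels below are CPM, read counts scaled to library size by TMM, and fold changes are on the log2 scale.

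This stretch of the long arm overlaps the segment commonly lost in the 5q- form of myelodysplastic syndrome, where loss of 1 copy lowers the RNA of several adjacent genes, such as the kinase gene CSNK1A1 and the ribosomal protein gene RPS14. Such a loss in RNA data shows as neighbouring genes that are lower together, in proportion to the copies lost, whatever their functions. CD74 encodes the invariant chain, a chaperone of MHC class II, and is a marker of cells that present antigen. ANXA6 encodes an annexin, a protein that binds membranes when calcium is present.

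The fold changes of both anchors and of 3 genes that lie between them differed, and that difference was not tested. The promoters of these genes are shown, though other genes lie among them. Each is the RefSeq window (GRCh38.p14) that runs from 250 bases before to 50 bases after the start, written 5′ to 3′ on the gene's own strand, with every CCAAT and every GGGCGG on either strand in capitals. CCAAT is the core bound by the factor NF-Y, which also occurs as the Y box of MHC class II promoters, and GGGCGG is the GC box. The window of CD74 lies at chr5:150412861-150413160 (minus strand), that of SYNPO at chr5:150600826-150601125 (plus), RBM22 at chr5:150701013-150701312 (minus), TNIP1 at chr5:151080985-151081284 (minus) and ANXA6 at chr5:151157730-151158029 (minus). The RefSeq start of TNIP1 lies inside the GENCODE gene, whose outermost end is 151093577.
CD74: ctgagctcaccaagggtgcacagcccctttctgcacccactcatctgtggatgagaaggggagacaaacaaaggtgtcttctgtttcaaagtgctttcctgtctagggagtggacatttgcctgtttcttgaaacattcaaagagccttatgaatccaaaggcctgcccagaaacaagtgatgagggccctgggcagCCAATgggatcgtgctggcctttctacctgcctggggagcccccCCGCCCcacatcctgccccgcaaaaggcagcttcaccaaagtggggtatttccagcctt
SYNPO: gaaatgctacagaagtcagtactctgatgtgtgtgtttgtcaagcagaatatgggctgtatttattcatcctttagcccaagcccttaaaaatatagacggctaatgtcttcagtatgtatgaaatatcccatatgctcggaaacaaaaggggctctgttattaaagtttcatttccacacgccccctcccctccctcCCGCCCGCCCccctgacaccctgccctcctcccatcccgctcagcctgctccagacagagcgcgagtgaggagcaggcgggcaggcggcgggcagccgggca
RBM22: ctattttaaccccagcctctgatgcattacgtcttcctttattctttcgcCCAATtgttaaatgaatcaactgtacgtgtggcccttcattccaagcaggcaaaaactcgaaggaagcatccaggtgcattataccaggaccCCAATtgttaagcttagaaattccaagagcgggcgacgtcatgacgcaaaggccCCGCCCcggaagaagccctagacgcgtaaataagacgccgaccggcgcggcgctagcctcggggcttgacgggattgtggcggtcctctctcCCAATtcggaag
TNIP1: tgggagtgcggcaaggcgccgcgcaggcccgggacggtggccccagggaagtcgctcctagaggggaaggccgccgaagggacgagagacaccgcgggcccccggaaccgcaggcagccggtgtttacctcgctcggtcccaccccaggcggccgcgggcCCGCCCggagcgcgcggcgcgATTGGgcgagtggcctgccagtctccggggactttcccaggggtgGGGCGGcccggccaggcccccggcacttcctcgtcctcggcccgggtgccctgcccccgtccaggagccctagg
ANXA6: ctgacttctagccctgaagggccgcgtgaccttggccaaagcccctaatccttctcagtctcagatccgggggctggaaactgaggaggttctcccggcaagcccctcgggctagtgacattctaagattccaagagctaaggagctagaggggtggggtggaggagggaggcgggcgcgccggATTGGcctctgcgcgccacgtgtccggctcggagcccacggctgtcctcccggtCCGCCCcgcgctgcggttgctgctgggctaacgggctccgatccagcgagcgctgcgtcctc

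The CD74 and ANXA6 windows each hold 1 CCAAT and 1 GGGCGG, RBM22 holds 3 and 1, TNIP1 holds 1 and 2, and SYNPO holds no CCAAT and 2 overlapping GGGCGG. They differ in CG dinucleotides, with 3 in CD74, 25 in ANXA6, 36 in TNIP1, 22 in RBM22 and 12 in SYNPO. Of the 42 neighbours 40 were matched to a window (TCOF1 and CDX1 were not). CCAAT was found in 18 of the 40 (45.0%), against 35.7% of 27305 genes with a window, and GGGCGG in 21 (52.5%), against 44.6%. The TATA box letters TATAAA were found in none of the 40 windows, against 12% of all genes. For a neighbour with several windows, the one nearest its GENCODE 5′ end was taken. For the 27305 genes it was the first one listed, and they were not limited to genes of the count table. The shares thus rest on unlike rules. These matches describe the letters of the windows, and no binding was measured.

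Of the 42 neighbours 23 had enough reads to be tested and 19 did not. The 19 reached at most 4 reads in any library and at most 18 reads over all 9 libraries, and 6 of them had no read (CDX1, SLC6A7, CAMK2A, SMIM3, SPARC and HAND1). They include all 4 receptors and channels of the stretch, CSF1R (the receptor of macrophage colony-stimulating factor), PDGFRB (a receptor of platelet-derived growth factor), GLRA1 (a glycine receptor subunit) and NMUR2 (a neuromedin receptor). Among signalling genes the kinase gene CAMK2A, the exchange factor gene ARHGEF37 and the phosphodiesterase gene PDE6A were not tested. The transcription factor genes CDX1, ZNF300 and HAND1, the transporter genes SLC6A7, SLC36A2 and SLC36A3, and the sulfatase gene ARSI were likewise too low. So were MYOZ3 (a sarcomere protein), GPX3 (a secreted peroxidase), SPARC (a matrix glycoprotein), FAT2 (an atypical cadherin) and SMIM3. A fall of any of these 19 was not detectable at this depth.

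Per length, the levels of the tested neighbours spanned most of the range of expressed genes. Mean RPKM over the 9 libraries was 60.4 for the copper chaperone gene ATOX1, higher than for 91.3% of tested genes. It was 34.5 for CSNK1A1, 28.2 for LARP1, 19.7 for TNIP1, 19.1 for G3BP1 and 17.6 for TCOF1. At the low end it was 0.488 for SLC36A1, 0.419 for TIGD6, 0.328 for NDST1 and 0.108 for SYNPO, which stood above only 2.4% of tested genes. The anchors lay within this range, with a mean RPKM of 58.9 for CD74 and 8.24 for ANXA6. Tested neighbours had a median of 27 CG dinucleotides in their promoter window (22 genes with a window) and those not tested had 12.5 (18 genes). With the first listed window of each gene, the median was 26 over the 9370 tested genes that had a window. It was 5 over the 11610 untested rows of the count table that had one.

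Libraries of 1 group differed in ways the labels do not explain. Among the tested neighbours, longer genes tended to be high in the second gFBXW7_gKMT2D library and in the second and the third gLuc library, and low in the third gFBXW7_gKMT2D and the first gLuc library.

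The values of the anchors are given first. CD74 (150401637 to 150412929, minus strand) had 61.3, 61.3 and 60.9 CPM in the gFBXW7_gKMT2D libraries, 114.9, 152.4 and 143.1 in the 3 of gFBXW7, and 141.1, 143.9 and 167.5 CPM in the 3 of gLuc. ANXA6 (151100712 to 151157882, minus strand) had 17.0, 15.1 and 13.1 CPM in gFBXW7_gKMT2D, 31.8, 31.9 and 27.9 in gFBXW7 cells, and 31.6, 31.7 and 29.6 in gLuc cells. For both genes every gFBXW7_gKMT2D library was below every other library, while the gFBXW7 and gLuc libraries overlapped. The log2 fold change of gFBXW7_gKMT2D against gFBXW7 was -1.16 for CD74 and -1.02 for ANXA6. Against gLuc it was -1.30 for CD74 and -1.04 for ANXA6. The genes lie 687.8 kb apart with 5 of the tested neighbours between them. In bulk RNA, fewer cells with the transcript and less transcript per cell cannot be told apart.

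**Figure D1:**
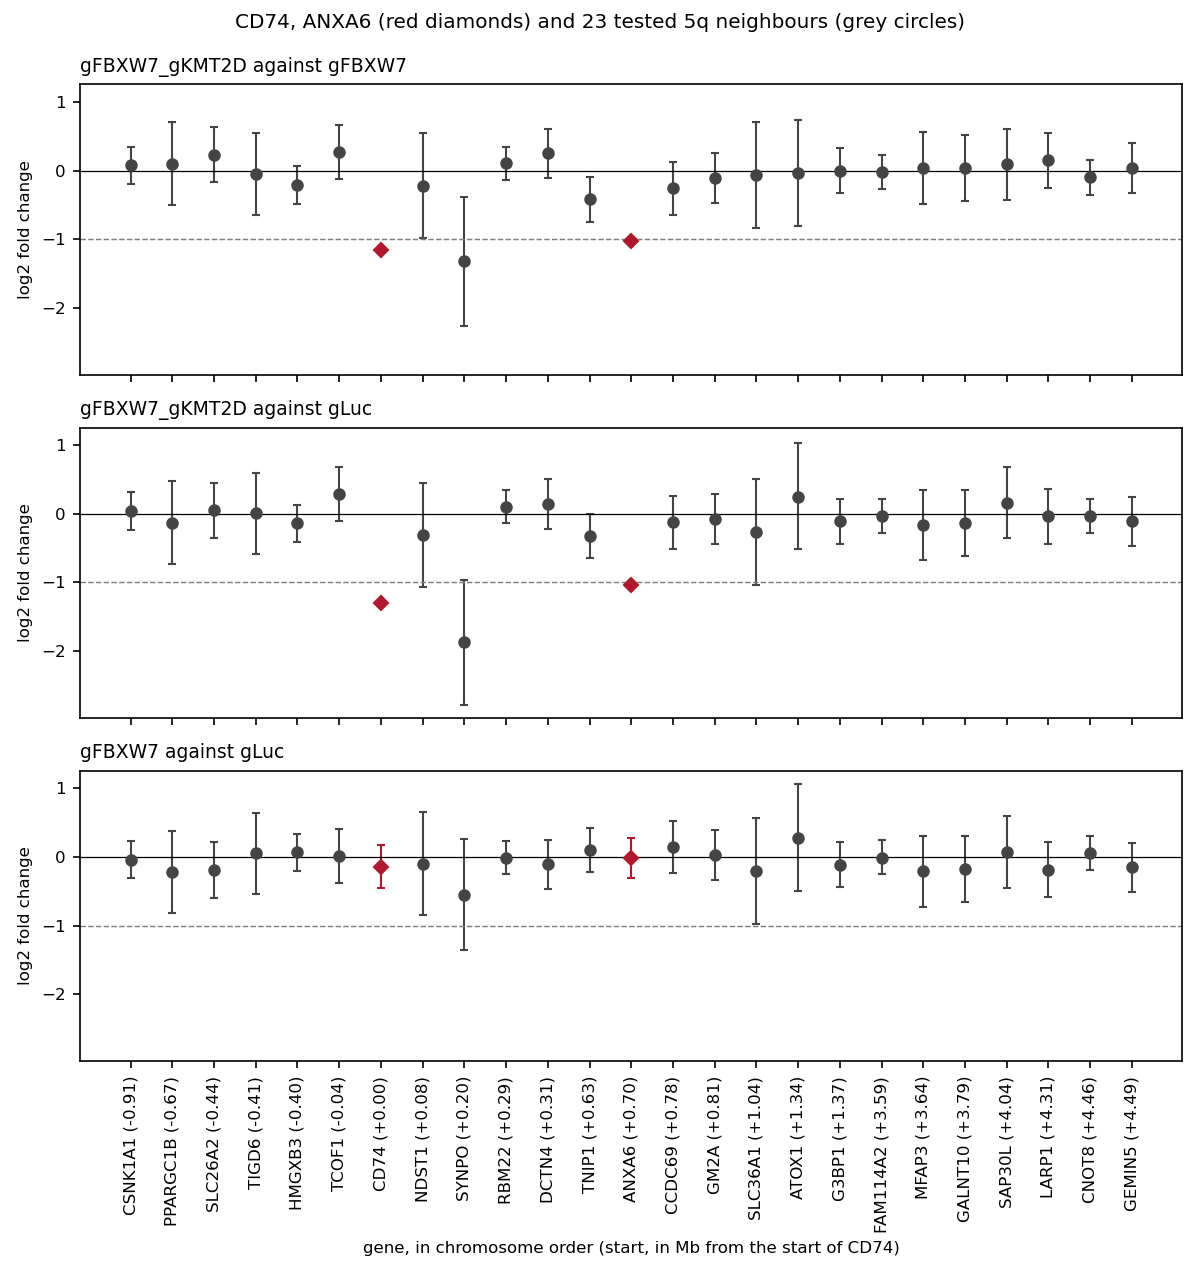
Log2 fold change (vertical axis) of each tested gene of the stretch in chromosome order (horizontal axis, with the start in Mb from the start of CD74) for gFBXW7_gKMT2D against gFBXW7, gFBXW7_gKMT2D against gLuc and gFBXW7 against gLuc, from the upper to the lower panel. Red diamonds are CD74 and ANXA6, grey circles the 23 tested neighbours, bars 95% intervals (drawn for the anchors only in the lower panel, since they were picked for their values in the others), and the dashed line marks -1; most neighbours sit near 0 on both sides of each anchor, and SYNPO lies lowest in the upper and middle panels.

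In gFBXW7_gKMT2D against gFBXW7, the comparison that differs by the RNA against KMT2D, none of the 23 tested neighbours passed the threshold (edgeR quasi-likelihood test, Benjamini-Hochberg adjusted p under 0.05). Over all tested genes the same threshold called 0.0603%, 8 of 13262. The neighbours' log2 fold changes ran from -1.32 to 0.27 around a median of 0.00, with 11 lower and 12 higher, while 45.4% of all tested genes were lower. The median was 0.02 over all tested genes and 0.04 over the other 492 tested genes of chromosome 5. At an unadjusted p under 0.05, 2 neighbours were lower (SYNPO and TNIP1) and none higher, beside 1.92% of all tested genes that were lower at that level. DESeq2 also called none of the 23.

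The 95% interval of the log2 fold change lay wholly above -1 for 22 of the 23, the exception being SYNPO, beside 93.2% of all tested genes. It lay wholly above -0.5 for 15 of them, beside 57.1%. So for 22 neighbours a fall as large as a log2 fold change of -1 was outside the interval in this fit, and for 8 a fall of 0.5 was inside it. The 42 tested genes nearest to the stretch on its lower-numbered side had a median of 0.00 and the 42 on the other side 0.08.

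In gFBXW7_gKMT2D against gLuc, the comparison that carries both RNAs, again none of the 23 passed the threshold, beside 0.0528% of all tested genes (7 of 13262). Log2 fold changes ran from -1.87 to 0.29 around a median of -0.08, with 15 lower and 8 higher (50% of all tested genes were lower), against a median of 0.00 over all tested genes and -0.02 over the rest of chromosome 5. At an unadjusted p under 0.05 the neighbours that were lower were again SYNPO and TNIP1, and none was higher. Among all tested genes 1.47% were lower at that level. DESeq2 called 1 of the 23, SYNPO. The interval lay above -1 for 20 neighbours, beside 91% of all tested genes, and reached -1 for SYNPO, NDST1 and SLC36A1. Both comparisons share the gFBXW7_gKMT2D libraries, so their values are not independent.

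In gFBXW7 against gLuc, the comparison that carries the RNA against FBXW7 alone, none of the 23 passed the threshold and none of all 13262 tested genes did (0% called by edgeR). Over all tested genes 209 had an unadjusted p under 0.05, and DESeq2 called 1. None of the neighbours was lower or higher at an unadjusted p under 0.05, beside 0.927% of all tested genes that were lower at that level, and DESeq2 called none of the 23. Log2 fold changes ran from -0.55 to 0.28 around a median of -0.04, with 14 lower (50.7% of all tested genes). None had all gFBXW7 libraries below or all above the gLuc libraries, beside 4.49% and 4.37% of all tested genes. The interval lay above -1 for 22, with SYNPO the exception, beside 88.6%. The anchors changed by -0.14 (CD74, 95% interval -0.45 to 0.17, edgeR adjusted p = 0.96) and -0.02 (ANXA6, -0.31 to 0.27, adjusted p = 0.98).

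**Figure D2:**
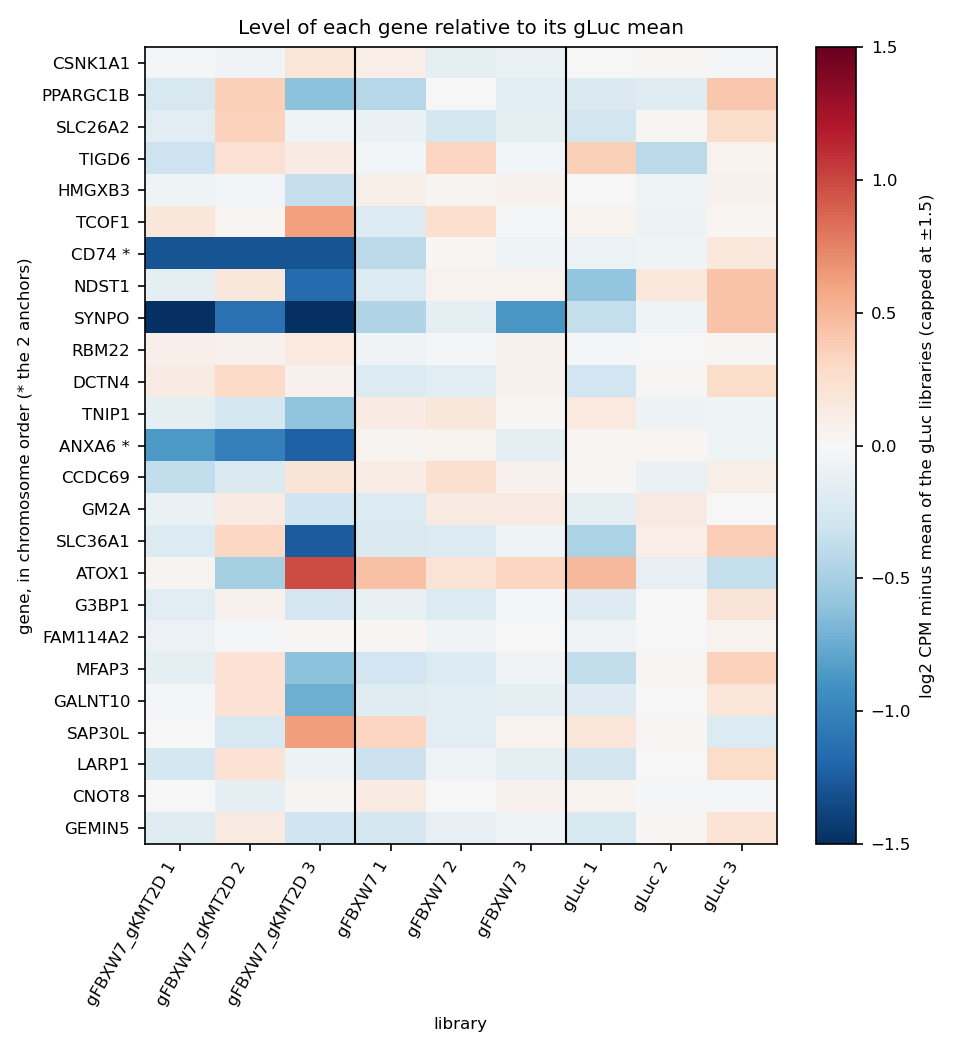
Level of each tested gene (rows, in chromosome order, anchors starred) in each of the 9 libraries (columns), as log2 CPM minus the mean of the gLuc libraries, with the colour scale capped at 1.5 in both directions. CD74, ANXA6 and SYNPO are well below 0 in all 3 gFBXW7_gKMT2D libraries, while RBM22 and DCTN4, which lie between the anchors, are not lower in any of them.

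Library by library, 19, 9 and 13 of the 23 neighbours were below their gLuc mean in the gFBXW7_gKMT2D libraries, 15, 14 and 13 in those of gFBXW7, and 15, 10 and 6 in the gLuc libraries themselves. The first gFBXW7_gKMT2D library had the most, and the gLuc libraries differed from each other by 9. The summed level of the 23 was 1017.5, 1141.3 and 1068.9 CPM in gFBXW7_gKMT2D, 1017.3, 1059.2 and 1061.8 in gFBXW7 cells, and 1016.6, 1076.5 and 1193.5 in gLuc cells. The 3 ranges overlap.

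Of the 6 tested neighbours within 250 kb of an anchor, 5 were lower in each comparison with gFBXW7_gKMT2D, and TCOF1 was higher. That limit was chosen after the values were seen. Just beyond it lie RBM22 and DCTN4, higher in each of these comparisons, and SLC36A1, lower in each. TCOF1, which encodes the nucleolar protein treacle and lies 1.3 kb from CD74, had 113.0, 102.3 and 152.7 CPM in gFBXW7_gKMT2D, 86.9, 118.9 and 98.5 in gFBXW7 cells, and 103.7, 94.5 and 102.6 in gLuc cells. Its groups overlapped, with a log2 fold change of 0.27 against gFBXW7 (95% interval -0.12 to 0.67) and 0.29 against gLuc (-0.10 to 0.68). With 1 library left out in turn these ran from 0.09 to 0.42 and from 0.10 to 0.40, lowest without the third gFBXW7_gKMT2D library in each. HMGXB3, an HMG-box gene on the same side 348.5 kb from CD74, had 38.5, 39.0 and 31.6 CPM in gFBXW7_gKMT2D, 42.8, 41.2 and 42 in gFBXW7 cells, and 39.7, 38.6 and 42.2 in gLuc cells. Its gFBXW7_gKMT2D libraries were all below its gFBXW7 libraries, by 0.21 on the log2 scale (SE 0.12, edgeR adjusted p = 1), and overlapped the gLuc libraries. Without the third gFBXW7_gKMT2D library the value against gFBXW7 was -0.11. RPS14, which is not among the 42 but lies 29.7 kb from CD74 on the other side, had 901.0, 508.8 and 1659.3 CPM in gFBXW7_gKMT2D, 1181.1, 954.4 and 746.4 in gFBXW7 cells, and 1027.6, 585.6 and 477.4 in gLuc cells. Its groups overlapped, with a log2 fold change of 0.09 against gFBXW7 (SE 0.42) and 0.55 against gLuc (SE 0.42). As a ribosomal protein gene with near-identical copies its counts are uncertain.

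TNIP1 and SYNPO lie between the anchors and had the lowest fold changes of the 23. TNIP1 encodes a partner of the A20 deubiquitinase that restrains NF-kappaB signalling, and its annotated span comes within 7.1 kb of ANXA6. It had 74.2, 68.6 and 54.3 CPM in gFBXW7_gKMT2D, 89.5, 92.3 and 82.9 in gFBXW7 cells, and 91.2, 77.6 and 78.1 in gLuc cells. All 3 gFBXW7_gKMT2D libraries were below all others, by a smaller step than at the anchors. The log2 fold change was -0.42 against gFBXW7 (SE 0.14, 95% interval -0.75 to -0.10, unadjusted p = 0.0147, edgeR adjusted p = 1). Against gLuc it was -0.32 (SE 0.14, interval -0.65 to -0.00, unadjusted p = 0.0479, edgeR adjusted p = 0.9). Without the third gFBXW7_gKMT2D library the values were -0.30 and -0.20.

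SYNPO encodes synaptopodin, an actin-associated protein known from kidney podocytes and dendritic spines. It had 5, 21 and 4 reads in gFBXW7_gKMT2D, 22, 25 and 17 reads in gFBXW7, and 24, 28 and 47 reads in gLuc, which is 0.281, 0.713 and 0.287 CPM in gFBXW7_gKMT2D, 1.19, 1.49 and 0.866 in gFBXW7 cells, and 1.27, 1.58 and 2.29 in gLuc cells. All 3 gFBXW7_gKMT2D libraries were below all others. The log2 fold change was -1.32 against gFBXW7 (SE 0.42, 95% interval -2.26 to -0.38, unadjusted p = 0.0111, edgeR adjusted p = 1) and -1.87 against gLuc (SE 0.41, interval -2.78 to -0.96, unadjusted p = 0.00102, edgeR adjusted p = 0.56). The call against gLuc depended on the method. SYNPO passed the threshold with DESeq2 (-1.90, adjusted p = 0.038), with no filter on low counts (-1.87, edgeR adjusted p = 0.022) and with 1 surrogate variable (-1.71, edgeR adjusted p = 0.03), and in no alternative against gFBXW7. Without the second gFBXW7_gKMT2D library the fold change was -2.02 against gFBXW7 and -2.58 against gLuc, and without the third it was -1.12 and -1.68. Without the third gLuc library it was -1.59 against gLuc.

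Across all 13262 tested genes, 5.2% had all gFBXW7_gKMT2D libraries below all gFBXW7 libraries and 3.69% had them all below all gLuc libraries. Among the 23 neighbours these were HMGXB3, SYNPO and TNIP1 against gFBXW7, and SYNPO and TNIP1 against gLuc. In the other direction RBM22 was higher in all gFBXW7_gKMT2D libraries than in all gFBXW7 libraries (beside 4.35% of tested genes) and than in all gLuc libraries (beside 3.28%).

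**Figure D3:**
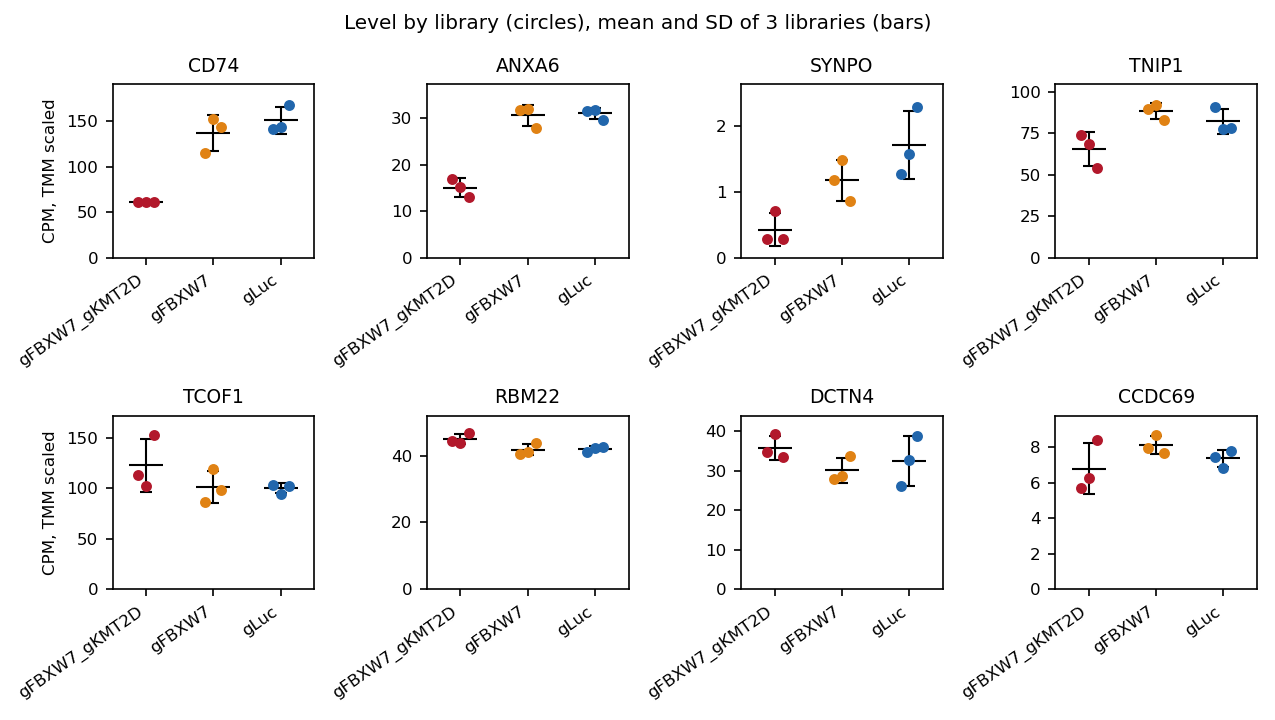
Level in CPM (vertical axis, starting at 0) of both anchors and 6 neighbours in each library (circles), with the mean and SD of the 3 libraries of a group (bars), for gFBXW7_gKMT2D, gFBXW7 and gLuc from left to right. CD74 and ANXA6 separate fully, SYNPO and TNIP1 separate with less room, and TCOF1, DCTN4 and CCDC69 overlap.

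SYNPO and TNIP1, the lowest genes between the anchors, are given above. Of the others between the anchors or next to ANXA6, NDST1, CCDC69 and GM2A were lower in both comparisons with gFBXW7_gKMT2D. RBM22 and DCTN4 were higher in both. NDST1, which encodes a heparan sulfate modifying enzyme, had 5.33, 6.62 and 2.58 CPM in gFBXW7_gKMT2D, 5.08, 6.07 and 6.06 in gFBXW7 cells, and 3.87, 6.56 and 7.94 in gLuc cells. Its groups overlapped, with a log2 fold change of -0.22 against gFBXW7 (SE 0.34) and -0.31 against gLuc (SE 0.34). Without the third gFBXW7_gKMT2D library the value against gFBXW7 was 0.07. RBM22, which encodes a splicing factor, had 44.5, 43.8 and 46.8 CPM in gFBXW7_gKMT2D, 40.6, 41.1 and 43.7 in gFBXW7 cells, and 41.2, 42.3 and 42.6 in gLuc cells. It was slightly above both other groups, by 0.11 against gFBXW7 (95% interval -0.13 to 0.34) and 0.10 against gLuc (-0.14 to 0.34), and neither interval leaves room for a fall of the anchors' size.

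DCTN4, a dynactin subunit gene, had 34.8, 39.2 and 33.4 CPM in gFBXW7_gKMT2D, 27.9, 28.7 and 33.7 in gFBXW7 cells, and 26.2, 32.6 and 38.7 in gLuc cells. It overlapped both, with log2 fold changes of 0.25 against gFBXW7 and 0.14 against gLuc (0.18 to 0.34 and 0.01 to 0.30 with 1 library left out). CCDC69, a coiled-coil gene 23.2 kb beyond ANXA6, had 5.67, 6.28 and 8.4 CPM in gFBXW7_gKMT2D, 7.94, 8.69 and 7.69 in gFBXW7 cells, and 7.42, 6.84 and 7.80 in gLuc cells. GM2A, which encodes a lysosomal activator of ganglioside breakdown, had 13.3, 15.5 and 11.5 CPM in gFBXW7_gKMT2D, 12.4, 15.6 and 15.6 in gFBXW7 cells, and 13, 15.5 and 14.2 in gLuc cells. The groups of both overlapped, with values of -0.26 (SE 0.17) for CCDC69 and -0.11 (SE 0.16) for GM2A against gFBXW7. With 1 library left out these ran from -0.43 to -0.15 for CCDC69 and from -0.23 to -0.01 for GM2A. CCDC69 and GM2A overlap on opposite strands, and the strand setting of the counting is not given in the sources used here, so reads of each may be split.

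Distance to the nearer anchor was set beside the fold changes, with a limit of 250 kb chosen after the values were seen, so no test was made. The 6 tested neighbours within 250 kb (TCOF1, NDST1, SYNPO, TNIP1, CCDC69 and GM2A) had a median of -0.24 in gFBXW7_gKMT2D against gFBXW7, with 5 lower, and the 17 farther away had 0.04, with 6 lower. Against gLuc these medians were -0.22 (5 lower) and -0.03 (10 lower). In gFBXW7 against gLuc they were 0.02 (2 lower) and -0.11 (12 lower). The limit falls just short of RBM22 (277.9 kb), SLC36A1 (279.2 kb) and DCTN4 (295.5 kb), so these medians depend on it. In gFBXW7_gKMT2D against gFBXW7 these genes changed by 0.11, -0.06 and 0.25, and against gLuc by 0.10, -0.27 and 0.14. RPS14, 29.7 kb from CD74, is not one of the neighbours and was not counted. The 5 between the anchors (NDST1, SYNPO, RBM22, DCTN4 and TNIP1) had medians of -0.22 in gFBXW7_gKMT2D against gFBXW7 and -0.31 against gLuc, with 3 lower in each. The estimated fold changes of these 5 thus lay on both sides of 0. The intervals of NDST1, RBM22 and DCTN4 included 0 in each of these comparisons, so none of the 5 was shown to be higher.

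The 6 RNA processing and translation genes were all tested and none passed. Their log2 fold changes in gFBXW7_gKMT2D against gFBXW7 ran from -0.10 to 0.27, with 1 lower, and against gLuc from -0.11 to 0.29, with 4 lower. LARP1, which encodes a binder of ribosomal protein messenger RNAs, had 200.5, 280.1 and 226.3 CPM in gFBXW7_gKMT2D, 192.1, 228.0 and 217.7 in gFBXW7 cells, and 199.4, 239.3 and 289.6 in gLuc cells. CNOT8, a deadenylase subunit gene, had 39.6, 36.0 and 40.6 CPM in gFBXW7_gKMT2D, 43.3, 39.7 and 41.3 in gFBXW7 cells, and 41.0, 38.9 and 39.0 in gLuc cells. Both overlapped between groups, with intervals against gFBXW7 of -0.25 to 0.55 for LARP1 and -0.35 to 0.15 for CNOT8. G3BP1 (a stress granule protein) and GEMIN5 (a binder of spliceosomal RNAs) changed by 0.00 and 0.04 against gFBXW7 and by -0.11 each against gLuc.

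Of the kinase and signalling genes, CSNK1A1, the casein kinase of the beta-catenin destruction complex, had 95.1, 93.3 and 109.7 CPM in gFBXW7_gKMT2D, 103.3, 87.8 and 90.3 in gFBXW7 cells, and 97.4, 97.9 and 94.4 in gLuc cells. The groups overlapped, and the log2 fold change was 0.08 against gFBXW7 (95% interval -0.19 to 0.35) and 0.04 against gLuc. CSNK1A1 lies at one end of the stretch, and its interval against gFBXW7 lay above -0.5. Small falls were inside that interval. SLC26A2, a sulfate transporter gene, had 16.2, 23.1 and 17.4 CPM in gFBXW7_gKMT2D, 16.9, 15.1 and 16.3 in gFBXW7 cells, and 14.8, 18.4 and 21.7 in gLuc cells. It overlapped both groups, with values of 0.23 (SE 0.18) against gFBXW7 and 0.05 (SE 0.18) against gLuc. Without the second gFBXW7_gKMT2D library these were 0.06 and -0.13. SLC36A1, a lysosomal amino acid transporter gene, changed by -0.06 (SE 0.35) and -0.27 (SE 0.34).

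ATOX1, which hands copper to transport ATPases, had the widest spread among the abundant neighbours. It had 26.3, 18.1 and 50.7 CPM in gFBXW7_gKMT2D, 34.9, 29.5 and 32.1 in gFBXW7 cells, and 36.0, 23.5 and 19.9 in gLuc cells. The gFBXW7_gKMT2D libraries enclosed all others, and the log2 fold change of -0.03 against gFBXW7 had an interval of -0.80 to 0.74. Its value against gLuc, 0.25, became -0.26 without the third gFBXW7_gKMT2D library.

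Among the remaining tested neighbours, the transcription genes PPARGC1B (a coactivator of nuclear receptors), SAP30L (a subunit of a histone deacetylase complex) and TIGD6 (derived from a transposase) changed by 0.10, 0.09 and -0.05 against gFBXW7 and by -0.13, 0.16 and 0.01 against gLuc. MFAP3, listed here with matrix genes, and GALNT10, which starts mucin-type O-glycans, each changed by 0.04 against gFBXW7, and by -0.17 and -0.13 against gLuc. FAM114A2 was among the steadiest, with 21.1, 21.9 and 22.7 CPM in gFBXW7_gKMT2D, 22.9, 21.6 and 22.4 in gFBXW7 cells, and 21.6, 22.4 and 23.2 in gLuc cells. MFAP3 overlaps FAM114A2 and GALNT10 in the annotation, and SLC26A2, TIGD6 and HMGXB3 overlap in turn, so reads in the shared parts are uncertain.

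The annotation places 13 other rows of the table in the stretch, of which 3 were tested. RPS14 is given above. SAP30L-AS1, an antisense transcript, had 1.46, 1.53 and 1.44 CPM in gFBXW7_gKMT2D, 1.08, 0.833 and 0.815 in gFBXW7 cells, and 0.848, 1.24 and 1.12 in gLuc cells. All gFBXW7_gKMT2D libraries were above all others, by 0.70 against gFBXW7 (SE 0.24, unadjusted p = 0.0155, edgeR adjusted p = 1). Against gLuc the step was 0.46 (SE 0.23, edgeR unadjusted p = 0.0743, adjusted p = 0.9). Of all tested genes 4.35% and 3.28% were higher in this way. SAP30L-AS1 had 14 to 45 reads a library, and its annotated span overlaps that of GALNT10. FAXDC2 stayed at 13 reads or fewer in every library and changed by -0.47 against gFBXW7 and 0.50 against gLuc. The other 10 rows had at most 1 read in a library.

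Several neighbours varied with gene length from library to library. Over the 23, the Spearman correlation of a library's deviation from the 9-library mean (log2 CPM) with gene length was -0.11, 0.48 and -0.57 in gFBXW7_gKMT2D, -0.18, 0.03 and -0.14 in gFBXW7 and -0.41, 0.45 and 0.72 in gLuc. The points share a library and its depth. Over all tested genes it was -0.31, 0.47 and -0.31, then -0.34, -0.17 and -0.05, then -0.40, 0.34 and 0.51 in the same libraries. The longest tested neighbours, NDST1, SLC36A1, PPARGC1B and SYNPO, were low in the third gFBXW7_gKMT2D library and high in the third gLuc library, and the shortest, ATOX1, did the opposite. 

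**Figure D4:**
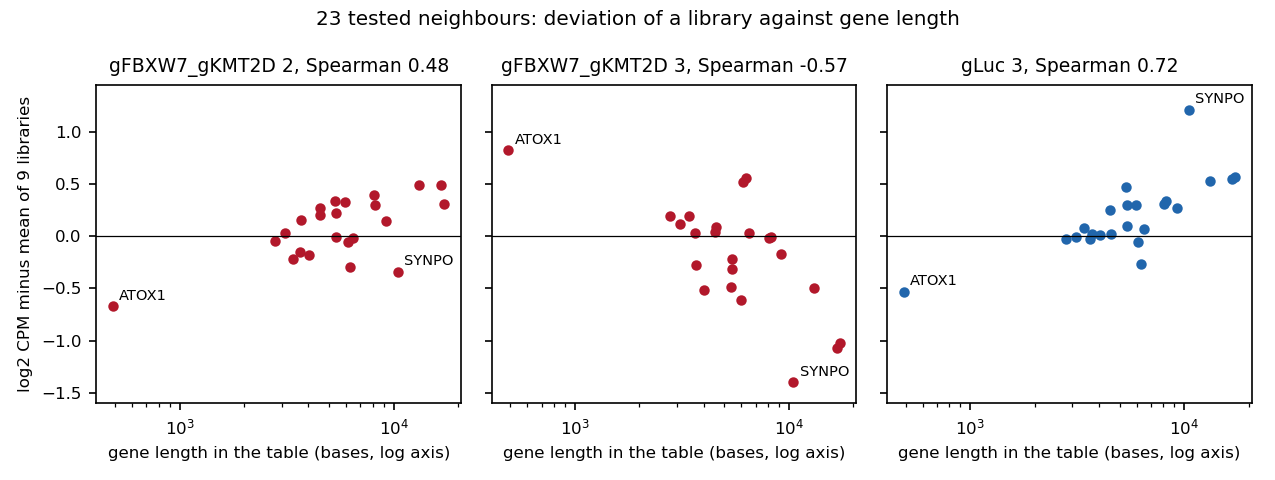
Deviation of each of the 23 tested neighbours from its mean over 9 libraries (log2 CPM, vertical axis) against its gene length in bases (horizontal log axis) in 1 library per panel, for the 3 of 9 libraries with the strongest correlation. Longer genes tend to be higher in the second gFBXW7_gKMT2D and the third gLuc library and lower in the third gFBXW7_gKMT2D library, with Spearman correlations of 0.48, 0.72 and -0.57.

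Other signs differed between the same libraries. Ribosomal protein genes took 7.23%, 4.91% and 9.97% of counts in gFBXW7_gKMT2D, 7.60%, 6.66% and 6.08% in gFBXW7 and 7.33%, 5.53% and 4.53% in gLuc. The mitochondrial protein genes took 2.04% to 3.67% in gFBXW7_gKMT2D, 0.638% to 1.54% in gFBXW7 and 1.64% to 3.33% in gLuc. Total counts were 16337492 to 27076242 per library. FBXW7 had 45.2 to 71.7 CPM in gFBXW7_gKMT2D, 53.4 to 55.5 CPM in gFBXW7 and 47.9 to 53.8 CPM in gLuc, and KMT2D had 28.6 to 107.0 CPM in gFBXW7_gKMT2D, 48.8 to 65.1 in gFBXW7 cells and 41.0 to 104.3 in gLuc cells. RNA of neither targeted gene separated the groups, which does not check the protein. All 10 plasma cell markers were tested, with a summed level of 11243.7 to 17262.4 CPM in gFBXW7_gKMT2D, 14048.0 to 14988.7 CPM in gFBXW7 and 13133.1 to 15593.6 CPM in gLuc. Of 20 markers of T, myeloid, stromal and erythroid cells 9 had no read and 1 was tested (HBB), and their sum was 24.2 to 44.1 CPM in gFBXW7_gKMT2D, 34.4 to 44.4 in gFBXW7 cells and 22.2 to 40.6 in gLuc cells. The part of these measures and of gene length in the fold changes was not tested.

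Genes related to the anchors by function, and lying elsewhere in the genome, were listed beside the neighbours. Of 15 MHC class II genes and their regulators 10 were tested, and none passed in any comparison. Their median log2 fold change was -0.78 in gFBXW7_gKMT2D against gFBXW7 (9 of 10 lower), -0.83 against gLuc (8 lower) and -0.06 in gFBXW7 against gLuc (7 lower). Among all tested genes 45.4%, 50% and 50.7% were lower in these comparisons. HLA-DRA, the class II alpha chain gene, changed by -1.08 (SE 0.22, edgeR adjusted p = 0.33) and -1.30 (SE 0.22, edgeR adjusted p = 0.17) in the comparisons with gFBXW7_gKMT2D, and CIITA, the class II transactivator gene, by -0.45 and -0.71. The regulator genes RFXAP (0.27 and 0.21) and RFXANK (-0.07 and 0.08) did not share this fall. Of 11 other annexins 7 were tested and none passed, with medians of -0.22 (7 lower), -0.01 (4 lower) and 0.05 (1 lower). Earlier results of these libraries had already shown the class II values, so they are no independent evidence. For the same reason the class II median is no yardstick for that of the 23 neighbours, and no test was made between them.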

How the data were processed

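Polyadenylated RNA was measured in 9 libraries. Per the file headers, the deposited table holds for each gene and library a read count and an RPKM value made by the authors, and the RPKM could be recomputed from the count (largest relative difference 8.5e-07). The submitters' processing notes name STAR, Trimmomatic, featureCounts, DESeq2 and GRCh38, without versions. Libraries were strand-specific by dUTP, per the labels' protocols. An unnamed row that equals the sum of all others (100% of the named counts) was left out.

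Counts were fitted with edgeR 4.0.16 in R 4.3.3 over all 9 libraries (filterByExpr, TMM, quasi-likelihood test, group as the only term), with Benjamini-Hochberg adjustment over 13262 genes at 0.05; intervals are 95%. The steps were tested on simulated data. Alternatives were RLE and upper quartile scaling, no filter, DESeq2 1.42.0, only the 6 compared libraries, the replicate block, 1 surrogate variable (sva 3.50.0), each library left out, and, for motifs, the 150 bases before the start. RPKM was used for levels between genes. Of the rows, 24136 (62.7%) were placed by symbol with GENCODE 29. Repeat libraries of a group were not copies of each other (chi-squared of at least 6.36 for each degree of freedom).

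The neighbours and lists were chosen with earlier results of these data known. Values per library are given for both anchors, the 2 nearest tested neighbours on each side of each, the 3 lowest and 3 highest fold changes in gFBXW7_gKMT2D against gFBXW7, any with an unadjusted p under 0.05, the 3 most abundant, and CSNK1A1, TCOF1, RBM22, TNIP1 and CNOT8; FAM114A2 was added after its values were seen. Figures were made with Python 3.11.15 and matplotlib 3.10.9.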

Additional observations from a re-analysis of the deposited data

How the results depend on the processing

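Calls were rare over all tested genes in the fit described, with 0.0603% in gFBXW7_gKMT2D against gFBXW7. They were 0.0528% in gFBXW7_gKMT2D against gLuc and 0% in gFBXW7 against gLuc. A count of 0 among 23 genes therefore says little about them. The 23 neighbours kept 0 calls in gFBXW7_gKMT2D against gFBXW7 and in gFBXW7 against gLuc under all alternatives. In gFBXW7_gKMT2D against gLuc they kept a count of 0 under all but 3. With no filter, with DESeq2 and with 1 surrogate variable that count was 1 (SYNPO), the cause of which was not tested. Without each library in turn it was 0 to 0 in all 3 comparisons, the median of the neighbours was -0.10 to 0.07 in gFBXW7_gKMT2D against gFBXW7 (0.00 with all libraries) and -0.19 to 0.01 against gLuc (-0.08 with all), and the number with an interval above -1 was 19 to 22 and 20 to 22.

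The number of genes called among all tested depended strongly on the setting. In gFBXW7_gKMT2D against gFBXW7 (8 in the fit described) it was 5 with upper quartile scaling, 33 with no filter, 32 with DESeq2, 0 with only the 6 libraries compared, 125 with 1 surrogate variable and 0 to 7 with 1 library left out. Against gLuc (7) it was 21, 24, 2 and 54 with no filter, DESeq2, 6 libraries and 1 surrogate variable, and 2 to 8 with 1 library left out. In gFBXW7 against gLuc (0) DESeq2 gave 1. With 6 libraries or 1 library left out the fit has fewer degrees of freedom; the cause of the other moves was not tested.

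No pairing by replicate number was seen: over 9 same-numbered pairs the correlation of deviations ran from -0.586 to 0.454, and 4 of 9 libraries correlated best with their own number. The second gFBXW7_gKMT2D and the third gLuc library, both with positive correlations to gene length, reached 0.720. Such differences between libraries could hide a pairing, so the check cannot decide whether replicate numbers were paired. With the replicate block, 2 genes were called in each comparison with gFBXW7_gKMT2D and 0 of the 23 neighbours.

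Of 768 single-gene alternatives, 27 turned the sign, all of genes that passed no threshold in that comparison. With 1 surrogate variable, gFBXW7_gKMT2D against gLuc became 0.01 for GM2A, -0.17 for ATOX1, -0.02 for CSNK1A1 and 0.07 for LARP1, and gFBXW7 against gLuc became -0.06 for TCOF1 and 0.25 for NDST1. With 1 library left out, gFBXW7_gKMT2D against gFBXW7 ran from -0.54 to 0.25 for ATOX1 and -0.52 to 0.07 for NDST1. Against gLuc the ranges were -0.19 to 0.11 for LARP1, -0.13 to 0.20 for SLC26A2, -0.07 to 0.02 for CNOT8, -0.20 to 0.02 for GM2A, -0.26 to 0.54 for ATOX1 and -0.03 to 0.08 for CSNK1A1. In gFBXW7 against gLuc they were -0.04 to 0.01 for RBM22, -0.13 to 0.12 for TCOF1, -0.04 to 0.14 for GM2A, -0.07 to 0.04 for ANXA6, -0.34 to 0.13 for NDST1 and -0.24 to 0.03 for DCTN4. CD74 stayed between -1.35 and -1.06 and ANXA6 between -1.13 and -0.93 in both comparisons with gFBXW7_gKMT2D when 1 library was left out. Both were picked for this fall in these same libraries, so these values describe it and are no test of it. The direction of both held. In 39 alternatives, all of CD74 or ANXA6 in these comparisons, the gene no longer passed the threshold. These included the fits of only the 6 libraries compared, the replicate block and most of those with 1 library left out.

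Groups of 3 libraries limit all comparisons, and 19 neighbours had too few reads for any statement. SYNPO rests on 4 to 47 reads a library.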
